A study of Mus musculus with 19 samples.

Results

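The genes described here are those for the proteins of the cytosolic ribosome, followed in the hippocampus of APP/PS1 mice and their wild-type littermates. They were taken by name, as every RefSeq gene called Rpl or Rps with a number, together with Rplp0 to Rplp2 and Rpsa. Pseudogenes and the Rps6k kinases were left out. The array's accessions gave a probe for 88 of the 89 RefSeq genes of that name, Rps27rt being the one without. A gene was kept if its probe stood well above background on at least 6 arrays, which 86 genes did, out of 25603 genes tested in all. The 2 that failed, Rpl10l and Rpl3l, are copies of Rpl10 and Rpl3 known from testis and from muscle, and their probes were well above background on 0 arrays. Of the 86, 49 were counted by name with the large subunit, copies included, 33 with the small subunit, copies again included, and 3 with the acidic stalk of the large subunit. Whether each copy, such as Rps23rg1, encodes a ribosomal protein was not examined. The last, Rps19bp1, fits the naming rule but encodes a protein that binds RPS19 and is no part of the ribosome.

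Total RNA came from hippocampi of mice aged 8 months, and each sample was hybridised to 1 Agilent array. WT littermates given vehicle (n = 6), APP/PS1 mice given vehicle (n = 7) and APP/PS1 mice given urolithin A (UA, n = 6) made up the 3 groups. UA is a gut bacterial product of dietary ellagitannins known for inducing mitophagy. It was given by gavage at 200 mg/kg/day from 6 to 8 months of age, and all groups received the DMSO vehicle, alone or with UA. APP/PS1 mice carry human transgenes driven by the mouse prion promoter and deposit amyloid in the brain. Each array was taken as 1 mouse, because each group has as many arrays as the study's design has mice. There was no WT group given UA.

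The cytosolic ribosome is built from ribosomal RNA and a nearly fixed set of proteins, one copy of most of them per ribosome, so their genes are usually transcribed in step. The small subunit reads the mRNA, the large subunit joins amino acids, and the P-stalk recruits and activates the GTPases of elongation. Nearly all of these mRNAs start with a terminal oligopyrimidine (TOP) tract, through which mTORC1 and the RNA-binding protein LARP1 control their translation and stability. Neurons translate in dendrites and axons as well as in the cell body, and ribosomal protein mRNAs are among those found there.

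The promoters show what these genes have in common in sequence, and those below belong to genes whose levels are described next, with Rpl4 as the gene of lowest difference. RefSeq promoter sequences of build GRCm38.p6, from 250 bases before to 50 bases after the start of transcription, were at hand for 66 of the 86 genes, with 77 starts between them. Each line gives 100 bases before and 20 bases from the start, 5′ to 3′. Capitals mark CCGGAAG (a core of ETS-family sites) and GGGCGG (a core of Sp1 sites) on either strand, CTTTCC and TATAAA on the sense strand, and any run of at least 8 C or T letters lying within 20 bases of the start. Marked stretches can overlap, and CTTTCC can lie inside a pyrimidine run.
Rps12, chr10:23787190-23787309, minus strand: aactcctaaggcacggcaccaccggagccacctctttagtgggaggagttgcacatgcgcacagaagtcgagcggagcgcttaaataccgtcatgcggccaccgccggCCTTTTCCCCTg
Rps27, chr3:90213629-90213748, minus strand: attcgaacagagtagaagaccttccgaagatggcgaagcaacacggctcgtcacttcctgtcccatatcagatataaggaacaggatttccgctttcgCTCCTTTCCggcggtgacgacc
Rps9, chr7:3703941-3704060, plus strand: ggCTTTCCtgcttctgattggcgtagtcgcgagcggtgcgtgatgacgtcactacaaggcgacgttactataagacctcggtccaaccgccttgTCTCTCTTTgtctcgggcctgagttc
Rpl34, chr3:130730318-130730437, minus strand: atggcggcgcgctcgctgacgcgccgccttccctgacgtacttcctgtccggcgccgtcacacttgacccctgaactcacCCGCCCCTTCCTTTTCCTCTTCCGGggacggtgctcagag
Rpl22, chr4:152325626-152325745, plus strand: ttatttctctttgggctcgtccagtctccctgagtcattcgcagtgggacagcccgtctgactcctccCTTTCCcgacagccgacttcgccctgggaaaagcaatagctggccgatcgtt
Rps27l, chr9:66945986-66946105, plus strand: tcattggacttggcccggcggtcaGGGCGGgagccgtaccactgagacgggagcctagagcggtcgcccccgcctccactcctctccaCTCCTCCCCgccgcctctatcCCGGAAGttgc
Rpl37a, chr1:72711160-72711279, plus strand: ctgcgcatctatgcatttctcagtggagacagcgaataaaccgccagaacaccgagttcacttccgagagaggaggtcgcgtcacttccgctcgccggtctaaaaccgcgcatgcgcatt
Rpl4, chr9:64173287-64173406, plus strand: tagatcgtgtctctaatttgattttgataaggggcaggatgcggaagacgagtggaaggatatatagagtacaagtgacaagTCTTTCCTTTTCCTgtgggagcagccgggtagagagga
Rpl34, Rpl22 and Rps27l have 2 listed starts each, of which 1 is shown, in each case the 1 with more of the marked motifs. The Rpl22 and Rps27l starts not shown held none of them in the same window, and at the Rpl34 start not shown the run did not cross the start. Among the starts shown, a pyrimidine run crossed the start in Rps27, Rps9 and Rpl34. In Rps27l and Rpl4 the run ended before the start, in Rps12 it began after it, and the Rpl22 and Rpl37a windows shown held none. Over all 77 starts of these genes the run was present in 33, or 42.9%, against 16.0% of the 32851 promoters in the table. CTTTCC lay in 37.7% of the genes' promoters and 14.1% of all promoters, counted over the full 300 bases. CCGGAAG lay in 35.1% against 8.86%, and GGGCGG in 59.7% against 35.7%. The TATA box letters TATAAA were about as frequent in these genes (9.09%) as in all promoters (8.32%). A match describes these letters only, and nothing was measured of any factor bound there.

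Levels are log2 of the green signal, corrected for background and for dye, minus the 75th percentile of that signal on the same array. A level of 6 thus lies 6 doublings above the percentile. Levels are compared between arrays for 1 probe and never between genes, since probes differ in brightness. All 86 genes except Rpl39l were well above background on every one of the 19 arrays. In bulk tissue a change in the number of cells of a type and a change in RNA per cell cannot be told apart. Many of these genes have processed copies of near-identical sequence in the genome, and which copies a probe also detects was not tested.

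In APP/PS1 mice on vehicle the mean level of nearly every ribosomal protein mRNA lay slightly above that in WT littermates. The difference was above 0 for 82 of 86 genes, where 50.4% of all genes tested lay above 0, and its median was 0.19 on the log2 scale, a 1.14-fold higher level, against 0.0025 over all genes. In limma, with p-values adjusted over all 25603 genes, 10 of the 86 genes were called higher and 0 lower at an adjusted p under 0.05, which is 11.6% of them. Over all genes 2.68% were called higher and 2.38% lower. At an unadjusted p under 0.05, 38 of the 86 were higher and 0 lower, beside 11.6% and 12.4% of all genes. Of the 86, 62 genes were at least 1.1-fold higher, 31 at least 1.2-fold and 1 at least 1.5-fold. The count of calls was 1 with slide in the fit and 0 with the brightness of the array in it, both described below. The groups did not overlap in 7 genes, all higher in APP/PS1 and among them Rpl22, Rpl34, Rpl37a, Rps2, Rps12 and Rps27, where 1.43% of all genes were higher without overlap.

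**Figure D1:**
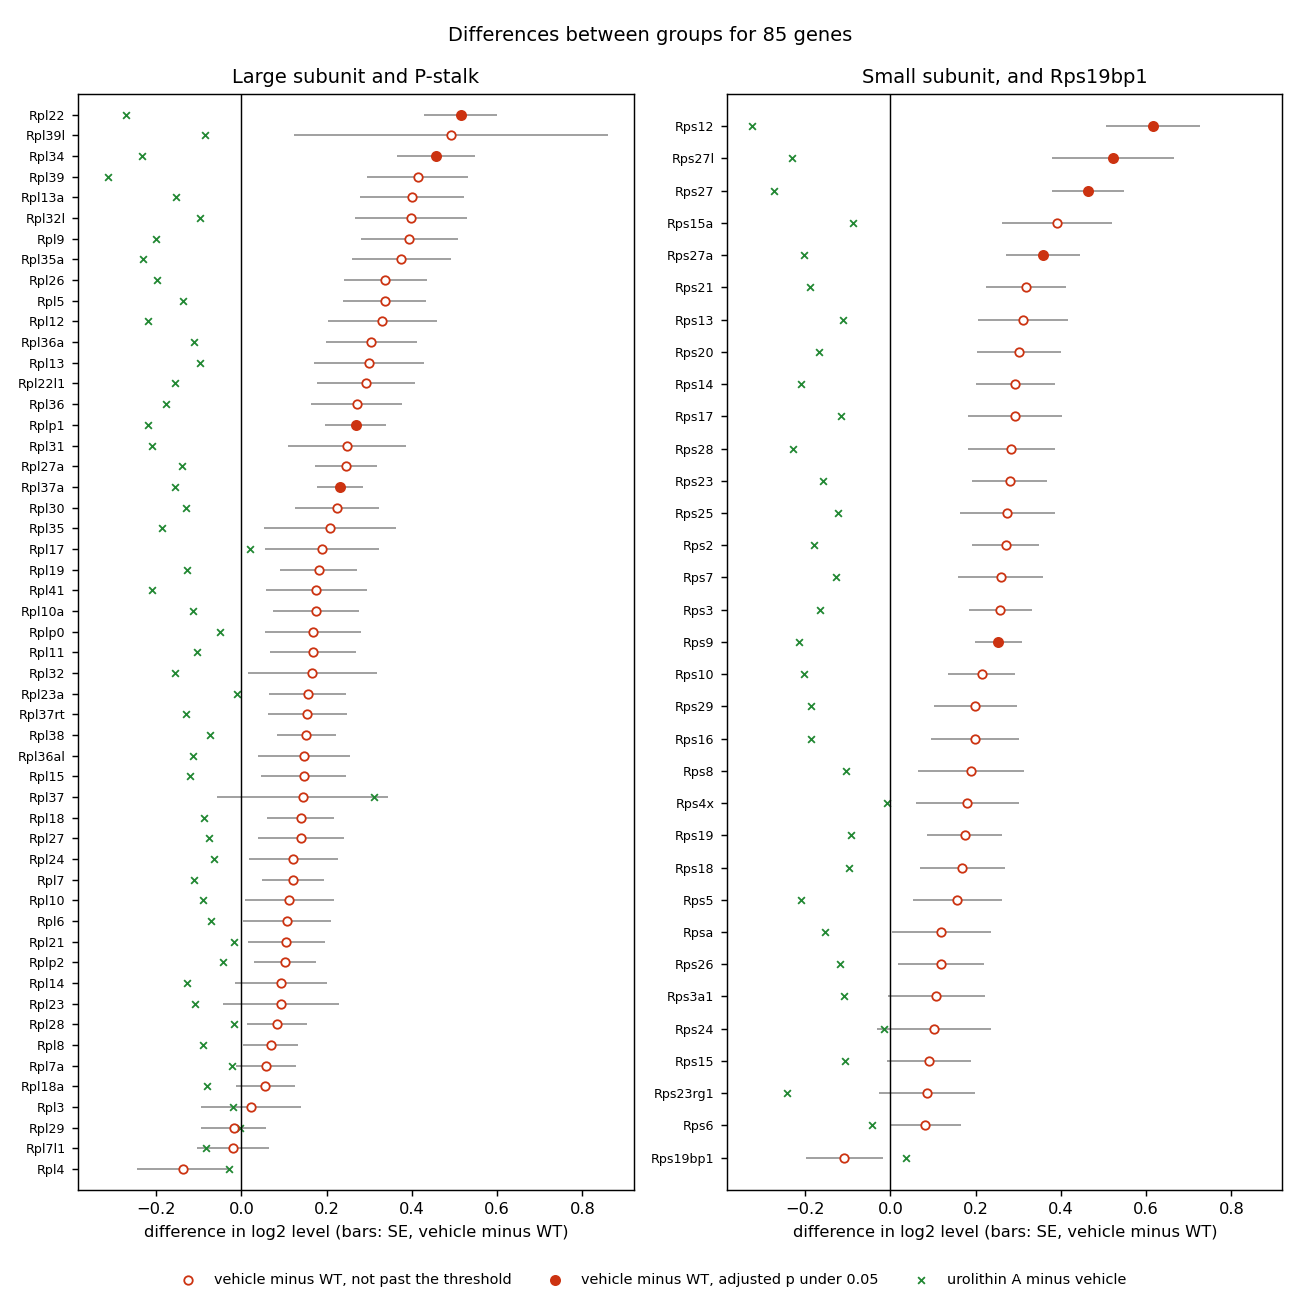
Difference in log2 level for 85 of the 86 genes, with red circles for APP/PS1 vehicle minus WT vehicle (bars: SE of the limma fit; filled: adjusted p under 0.05) and green crosses for urolithin A minus vehicle in APP/PS1. The red circles lie right of 0 for 81 genes and the green crosses left of 0 for 82 genes.

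All 33 genes counted with the small subunit had a difference above 0, with a median of 0.26, and 6 were called higher. Rps12, whose protein sits on the beak of the small subunit, had the largest difference of all 86 genes. Its level ran from 5.42 to 5.76 (median 5.6) on the 6 WT arrays, from 5.83 to 6.49 (median 6.34) on the 7 APP/PS1 vehicle arrays and from 5.80 to 6.19 (median 5.83) on the 6 UA arrays. Every APP/PS1 array of either treatment lay above every WT array. The vehicle mean was 1.53-fold the WT mean (log2 difference 0.62, SE 0.11, limma adjusted p = 0.0043).

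Rps27, a zinc-binding protein also called MPS1, ran from 6.47 to 6.72 in WT (median 6.53), from 6.80 to 7.37 in APP/PS1 vehicle (median 7.03) and from 6.61 to 6.95 with UA (median 6.74). WT and APP/PS1 vehicle did not overlap, and the UA arrays straddled the gap. It rose 1.38-fold in APP/PS1 vehicle (difference 0.46, SE 0.085, limma adjusted p = 0.00501). Its second probe gave 0.38 and was called too.

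Rps27l, a p53-inducible copy of Rps27, was 1.44-fold higher in APP/PS1 vehicle (difference 0.52, SE 0.14, limma adjusted p = 0.0431). It ran from 2.08 to 2.67 in WT (median 2.28), from 2.24 to 3.1 in vehicle (median 2.93) and from 2.24 to 3.01 with UA (median 2.65). All vehicle arrays but replicate 5 lay above every WT array, and that array lay within the WT range. Its second probe gave 0.54. Unlike its parent gene it did not follow the other ribosomal protein genes from array to array, as described below.

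Rps9, whose protein takes part in the accuracy of decoding, ran from 6.00 to 6.23 in WT (median 6.07), from 6.21 to 6.44 in vehicle (median 6.35) and from 6.07 to 6.19 with UA (median 6.15). WT and vehicle overlapped by a single array on each side, while vehicle and UA did not overlap. The rise in vehicle was 1.19-fold (difference 0.25, SE 0.055, limma adjusted p = 0.0164), and 0.31 at its second probe.

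Rps27a encodes ubiquitin fused to a protein of the small subunit, from which ubiquitin is cleaved. It ran from 6.49 to 6.85 in WT (median 6.65), from 6.80 to 7.22 in vehicle (median 7.10) and from 6.67 to 7.02 with UA (median 6.79), with WT and vehicle overlapping. Its brighter probe rose 1.28-fold (difference 0.36, SE 0.086, limma adjusted p = 0.0259). Its second probe went the other way, at -0.51 with an SE of 0.34, so the call for Rps27a rests on 1 of 2 probes.

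Of the other small-subunit genes, Rps3, whose protein lines the mRNA entry channel, was just outside the threshold (difference 0.26, adjusted p = 0.0509). Rps2, a neighbour of Rps3 at that channel, had non-overlapping groups and a difference of 0.27 (adjusted p = 0.0541). Rps6, the substrate of S6 kinase whose phosphorylation is a common readout of mTORC1 activity, had a difference of 0.082 (SE 0.082, adjusted p = 0.559). Rpsa, also known as a laminin receptor, had 0.12 (SE 0.12, adjusted p = 0.543). These adjusted p-values are limma's, as are those that follow.

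The large subunit had 46 of 49 genes above 0, with a median of 0.17, and 3 were called higher. Rpl22 gave the smallest p of all 86 genes. Its protein is dispensable for the ribosome in mice and binds RNA elsewhere, including the mRNA of its copy Rpl22l1. Rpl22 ran from 3.70 to 3.98 in WT (median 3.81), from 4.06 to 4.62 in vehicle (median 4.30) and from 3.86 to 4.28 with UA (median 4.02). WT and vehicle did not overlap, and the UA arrays reached into both. It rose 1.43-fold in vehicle (difference 0.51, SE 0.085, limma adjusted p = 0.00233).

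Rpl34 ran from 5.40 to 5.56 in WT (median 5.50), from 5.72 to 6.37 in vehicle (median 5.94) and from 5.58 to 5.98 with UA (median 5.68). As in Rps12, all APP/PS1 arrays of both treatments lay above the WT arrays. It rose 1.37-fold in vehicle (difference 0.46, SE 0.091, limma adjusted p = 0.00957).

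Rpl37a, a small zinc-binding protein, ran from 7.23 to 7.46 in WT (median 7.25), from 7.48 to 7.67 in vehicle (median 7.52) and from 7.31 to 7.42 with UA (median 7.39). The vehicle arrays lay above all arrays of both other groups. Its rise was 1.17-fold (difference 0.23, SE 0.055, limma adjusted p = 0.0247).

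Rpl26, Rpl9 and Rpl39 lay just outside the threshold with differences of 0.34, 0.39 and 0.41 and adjusted p-values of 0.0513, 0.0513 and 0.0514. Rpl5 and Rpl11, whose proteins form the 5S particle that binds MDM2 when ribosome assembly fails, had differences of 0.34 (adjusted p = 0.0531) and 0.17 (adjusted p = 0.314). The 4 genes of the 86 with differences below 0 were Rpl4 at -0.14, Rps19bp1 at -0.11, Rpl7l1 at -0.019 and Rpl29 at -0.018, and none passed the test. Rpl4 lines the exit tunnel, while Rpl7l1 is a copy of Rpl7 that acts in ribosome assembly.

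In the P-stalk, Rplp1 rose 1.2-fold in vehicle (difference 0.27, SE 0.072, limma adjusted p = 0.0393). It ran from 6.81 to 7.11 in WT (median 6.92), from 7.05 to 7.52 in vehicle (median 7.16) and from 6.92 to 7.08 with UA (median 6.96). WT and vehicle overlapped, and vehicle replicate 3, at 7.52, lay far above the others. The second Rplp1 probe had a difference of 0.23 (adjusted p = 0.0857). Its partners Rplp0, the stalk's anchor, and Rplp2, with which Rplp1 forms a dimer, had differences of 0.17 (adjusted p = 0.371) and 0.10 (adjusted p = 0.392).

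**Figure D2:**
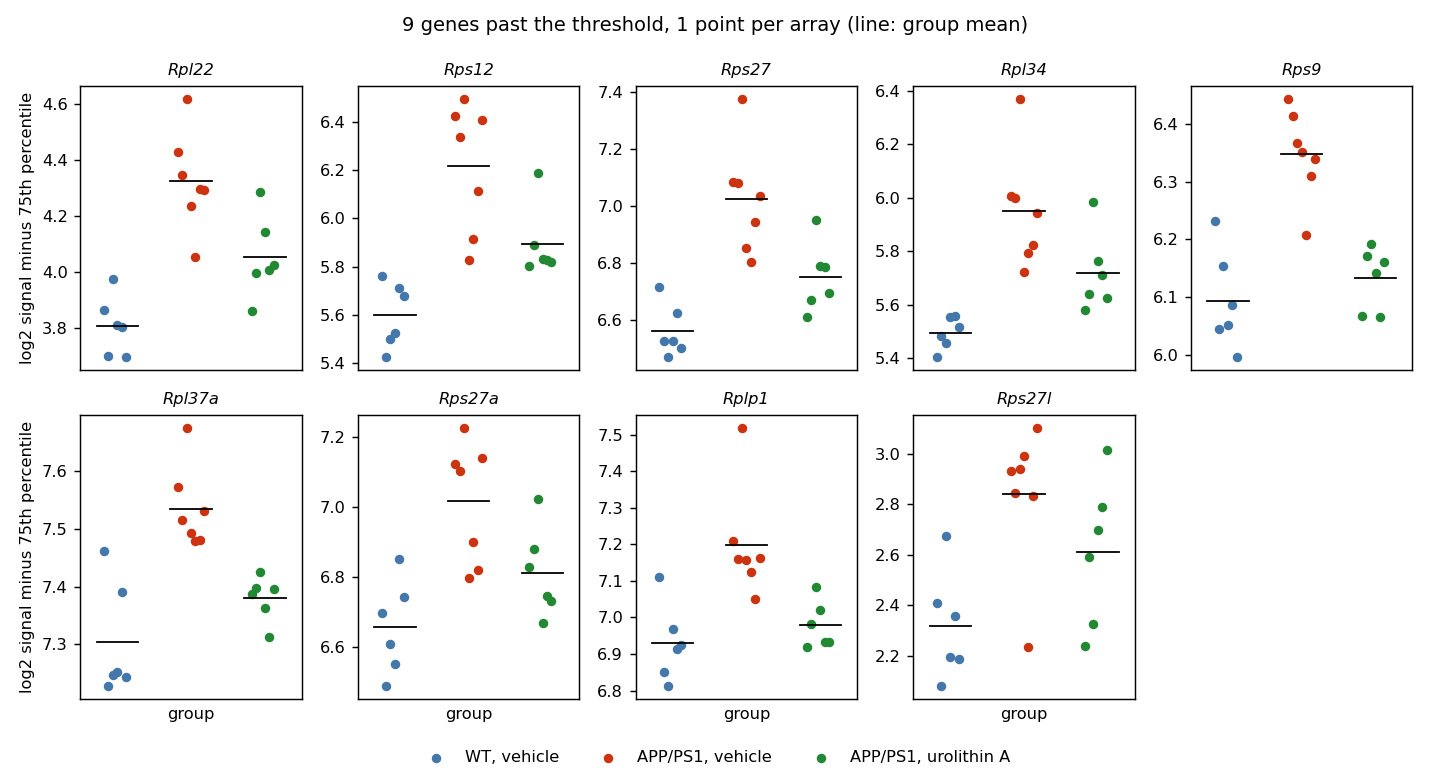
Level of 9 of the 10 genes past the threshold on each array (y axis: log2 signal minus the array's 75th percentile, a separate scale for each gene; horizontal line: group mean). Rpl22, Rps12, Rps27, Rpl34 and Rpl37a show no overlap between WT and APP/PS1 vehicle, and the UA mean lies between the other means in all 9. The genes were chosen by their difference between vehicle and WT, which favours such a position.

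Several ribosomal proteins have a second gene that is thought to replace them in some tissues. Rpl22 and its copy Rpl22l1 differed by 0.51 and 0.29 (adjusted p = 0.135 for the copy). Rpl36a and Rpl36al differed by 0.30 and 0.15, neither past the threshold. Rpl39 and Rpl39l differed by 0.41 and 0.49, the latter with an SE of 0.37 from a probe well above background on 12 arrays only. Rpl7 and Rpl7l1 differed by 0.12 and -0.019. Rps4x differed by 0.18, Rpl3 by 0.023 and Rpl10 by 0.11, and none of these passed the test. Whether a gene and its copy differed from each other in response was not tested.

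In UA-treated against vehicle-treated APP/PS1 mice the differences ran the other way, and no gene passed the test. The UA level was below the vehicle level for 83 of the 86 genes, where 51.7% of all genes lay below 0, with a median of -0.12 against -0.0073 over all genes. Limma called 0 of the 86 genes and 0 of 25603 overall (0%) at an adjusted p under 0.05. At an unadjusted p under 0.05, 16 of the 86 were lower and 0 higher, beside 9.61% and 5.85% of all genes. Because the vehicle arrays enter this comparison and the previous one with opposite signs, the 2 sets of differences are not independent. The lowest differences were those of Rps12 (-0.32, SE 0.11, limma adjusted p = 0.198), Rpl39 (-0.31, SE 0.12, adjusted p = 0.231) and Rps27 (-0.27, SE 0.085, adjusted p = 0.167). Rps9 had the smallest adjusted p of the 86, at 0.123, with a difference of -0.21 (SE 0.055). The highest were Rpl37 (0.31, SE 0.20), Rps19bp1 (0.037) and Rpl17 (0.019). In Rpl37, UA replicates 4 to 6, the arrays of slide 3 described below, ran from -2.16 to -1.58, above every vehicle array. UA replicates 1 to 3 ran from -2.98 to -2.67 in that gene, within the vehicle range of -3.14 to -2.29. In Rpl37a, Rps9 and Rps16 every UA array lay below every vehicle array, beside 0.609% of all genes.

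By subunit, all 33 small-subunit genes were below 0 with UA (median -0.17), as were 47 of 49 of the large subunit (median -0.11) and all 3 of the stalk. Rplp1 had -0.22 (SE 0.072, limma adjusted p = 0.184), Rplp0 -0.051 and Rplp2 -0.044. Rps6 had -0.044 (adjusted p = 0.821). The differences depended in part on vehicle replicate 3, described below: without it the median was -0.056, and 16 of 86 genes were above 0 in place of 3.

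Against WT, the UA-treated APP/PS1 mice lay a little higher. The difference was above 0 for 72 of 86 genes, beside 45.1% of all genes, with a median of 0.077 against -0.020 over all genes. That median was 0.037 without UA replicate 3, 0.051 without WT replicate 3 and 0.20 with slide as a fixed block. Limma called 0 of the 86, and 24 of all genes (0.0937%). At an unadjusted p under 0.05, 7 of the 86 were higher and 0 lower, beside 4.19% and 4.64% of all genes. The highest differences were those of Rpl37 (0.45, SE 0.21, limma adjusted p = 0.547), Rpl39l (0.41, SE 0.38) and Rps15a (0.30, SE 0.13, adjusted p = 0.528). In Rpl37 only the UA arrays of slide 3 lay above the WT range of -2.98 to -2.55, and UA replicates 1 to 3 lay within it. The lowest were Rpl4 (-0.17), Rps23rg1 (-0.16), which arose from a retroposed copy of Rps23, and Rpl7l1 (-0.10). Rpl32l, Rpl34, Rps12 and Rps15a had every UA array above every WT array, where 0.543% of all genes did. The UA mean lay between the WT and vehicle means for 71 of the 86 genes and for all 10 genes called between genotypes. Those 10 were chosen for a high vehicle mean over WT, and that choice by itself favours a UA mean below the vehicle mean. The share over all genes was not counted, so neither count shows an effect of UA.

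The genes moved together from array to array within each group as well. With group means removed, the median correlation between 2 of the genes over the 19 arrays was 0.67, and the median correlation of a gene with the mean of the others was 0.83. For 51 genes that correlation was above 0.8. It was under 0.3 for Rpl39l (-0.12), Rpl37 (-0.11), Rps27l (0.059) and Rpl13 (0.098). These are descriptions over arrays that share the percentile used for scaling.

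The mean over all 86 genes ran from 5.58 to 5.89 on WT arrays (median 5.67), from 5.74 to 6.28 on APP/PS1 vehicle arrays (median 5.93) and from 5.69 to 5.94 on UA arrays (median 5.77). The groups overlapped. Vehicle replicate 3 stood apart at 6.28, with the next vehicle array at 5.95, and it was also the dimmest array, with the lowest 75th percentile (450 intensity units) and the fewest probes above background (51.4%). Without that array the vehicle mean was 5.85 in place of 5.91, the median difference from WT was 0.12 and 9 genes were called.

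**Figure D3:**
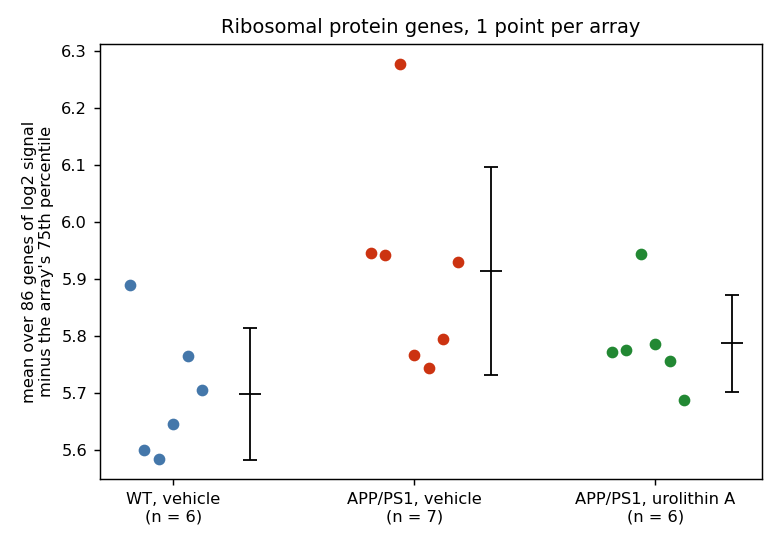
Mean level of the 86 genes on each array (y axis: mean of log2 signal minus the array's 75th percentile), with 1 point per array and the mean ± SD of each group beside the points. The vehicle group runs from 5.74 to 6.28 and overlaps both others, and its highest point is replicate 3.

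The level of these genes moved with the brightness of the array. Across the 19 arrays their mean level correlated with the log2 of the array's 75th percentile at a Pearson r of -0.94 and a Spearman rho of -0.91, and at -0.88 without the 2 arrays farthest from the median percentile. Within groups r was -0.86 in WT, -0.98 in APP/PS1 vehicle and -0.85 with UA. The percentile is itself subtracted from every level, so the 2 measures share a term. WT arrays were brighter, with a mean log2 percentile of 9.94 against 9.5 in vehicle and 9.62 with UA. Before that scaling the mean log2 signal of the 86 genes was lower in APP/PS1, at 15.41 in both vehicle and UA against 15.64 in WT. With the log2 percentile added to the limma fit as a covariate, chosen after seeing the data, 0 of the 86 genes were called between vehicle and WT, 41 of 86 differences were above 0 and the median was -0.0040. In that fit the differences of Rpl22 and Rps12 were 0.35 and 0.35 (limma adjusted p = 0.0534 and 0.0551), and the median of UA minus WT was -0.071. The part of brightness in the group differences and the part of genotype cannot be told apart with these arrays.

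**Figure D4:**
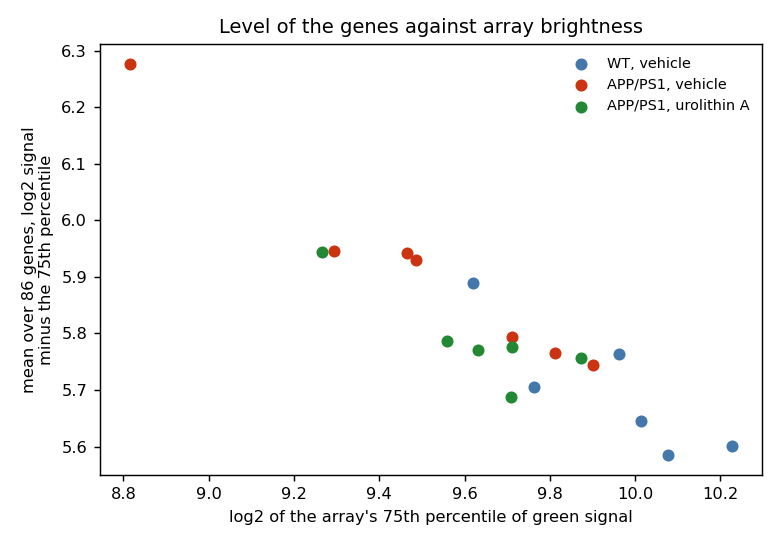
Mean level of the 86 genes (y axis: log2 signal minus the 75th percentile) against the log2 of the same array's 75th percentile of green signal (x axis), 1 point per array. Levels fall as brightness rises (r = -0.94), and most of the WT arrays lie at the bright end.

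Slide and genotype were largely confounded. Slide 1 held 6 WT and 2 vehicle arrays, 5 vehicle and 3 UA arrays shared slide 2, and the other 3 UA arrays were alone on slide 3. The 2 vehicle arrays on slide 1 averaged 5.94 against 5.70 for the WT arrays beside them, and the vehicle arrays on slide 2 averaged 5.90. Within slide 1 the median difference was 0.22 with 81 of 86 genes above 0, and limma called 0 of the 86. With slide as a block 1 gene, Rps12, was called (difference 0.78, limma adjusted p = 0.0499). Within slide 2 the median of UA minus vehicle was -0.052, with 21 genes above 0. Sex, read from Xist and Y-linked genes because the labels do not give it, was female for 1 of 6 WT, 3 of 7 vehicle and 1 of 6 UA arrays. In male arrays only the median difference between vehicle and WT was 0.27, and 3 genes were called.

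The medians of the other lists of the translation machinery lay between -0.12 and 0.018 between vehicle and WT. Of the 16 listed genes that are associated with the ribosome or have TOP mRNAs, 2 were called lower, 0 higher, and the median was -0.095, where 2.38% of all genes were called lower. Larp1, the regulator of TOP mRNAs named above, was lower in APP/PS1 vehicle, at 4.12 against 4.49 in WT, a 1.29-fold difference (-0.37, SE 0.074, limma adjusted p = 0.0103). Its arrays ran from 3.90 to 4.35 in vehicle and from 4.32 to 4.57 in WT, so the groups overlapped slightly. Serbp1, which binds idle ribosomes, was lower by -0.22 (SE 0.060, adjusted p = 0.0405). With the brightness covariate the Larp1 difference was -0.27 (adjusted p = 0.127). With slide as a fixed block neither passed the test (limma adjusted p = 0.136 for Larp1 and 0.277 for Serbp1). Fau, a ribosomal protein fusion gene that falls outside the naming rule, differed by 0.055, and Rack1, a stable partner of the small subunit, by 0.18 (adjusted p = 0.326). Tpt1, a classic TOP mRNA, differed by 0.17 (adjusted p = 0.287).

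Among 42 initiation factors 0 were called higher and 1 lower, Eif4h, a helper of the eIF4A helicase (-0.30, SE 0.078, limma adjusted p = 0.0327), and the median was -0.12 with 33 below 0. That count is at the 2.38% of all genes called lower. The 11 elongation factors had a median of -0.017 and 0 calls, with Eef1a1 at 0.099 and Eef2 at -0.017. Of 73 ribosome biogenesis factors, 0 were called higher and 2 lower. These were nucleolin, Ncl, at -0.19 (SE 0.053, adjusted p = 0.0428), and Wdr3, a factor of small subunit assembly, at -0.18 (SE 0.051, adjusted p = 0.0449), and the list's median was -0.094. This share too was close to the 2.38% over all genes. The 12 measured genes of RNA polymerase I, which makes ribosomal RNA, had a median of -0.014 and 0 calls. Of 33 mTORC1 pathway genes only Castor2, a member of the family that senses arginine for mTORC1, was called, at -0.32 (SE 0.083, adjusted p = 0.0338), and the list median was -0.080. A single call among 33 genes is again near the 2.38% over all genes. With slide as a fixed block none of Eif4h, Ncl, Wdr3 and Castor2 passed the test (limma adjusted p = 0.213, 0.270, 0.330 and 0.319). The 12 MYC and p53 genes had a median of 0.018 and 0 calls. In UA against vehicle limma called 0 genes of these lists, as of all genes, and the medians ran from -0.053 for the MYC and p53 genes to 0.056 for the TOP and ribosome-associated genes. From array to array, with group means removed, the mean ribosomal protein level correlated with elongation factors (0.84) and with TOP and ribosome-associated genes (0.77). It correlated at 0.59 with initiation factors, 0.52 with RNA polymerase I, 0.12 with biogenesis factors, -0.10 with mTORC1 and -0.093 with MYC and p53 genes.

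**Figure D5:**
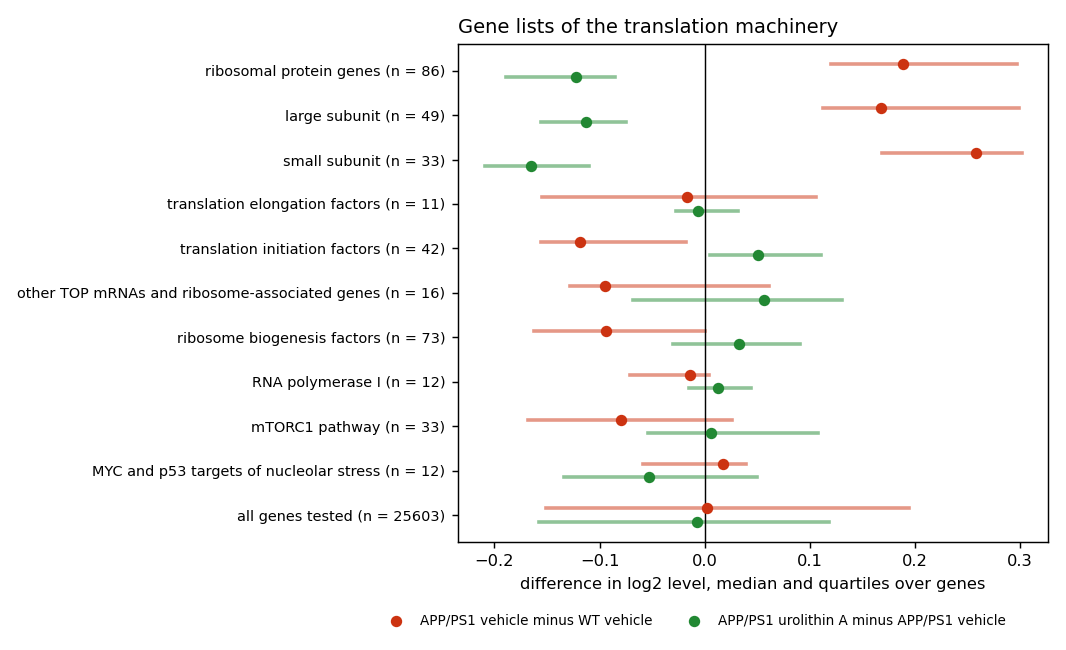
Median (point) and quartiles (bar) over genes of the difference in log2 level, for ribosomal protein genes, other lists of the translation machinery and all genes tested, with red for APP/PS1 vehicle minus WT vehicle and green for urolithin A minus vehicle in APP/PS1. Ribosomal protein genes lie at 0.19 and -0.12, and initiation and biogenesis factors at -0.12 and -0.094 in the red comparison.

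Markers of several cell types differed between the same groups. Of 10 microglial markers 6 were called higher in APP/PS1 vehicle and 0 lower, and the mean over the list ran from 2.68 to 2.90 on WT arrays, from 3.25 to 3.46 on vehicle arrays and from 2.90 to 3.26 on UA arrays. Of 9 measured markers of plaque-associated microglia 8 were called higher, with array means from -0.14 to 0.34 in WT, from 1.86 to 2.45 in vehicle and from 1.37 to 2.04 with UA. Of 8 astrocyte markers 3 were called higher. Over all genes 2.68% were called higher. The 7 oligodendrocyte, 6 endothelial and 4 measured blood markers were all above 0, with medians of 0.16, 0.18 and 0.26, and 0 were called. The 8 neuronal markers were all below 0, none past the threshold, with array means from 5.95 to 6.35 in WT and from 5.54 to 6.03 in vehicle. The 9 choroid plexus markers were all above 0 between vehicle and WT, with a median of 1.74, and 0 were called. Their array means varied widely within groups, from -1.31 to 3.98 in WT (median -0.49), from -3.63 to 4.60 in vehicle (median 3.21) and from -1.81 to 4.03 with UA (median 3.30). With group means removed, the mean level of the ribosomal protein genes correlated at 0.22 with the microglial list, -0.14 with the plaque-associated list, 0.21 with the neuronal list and -0.54 with the choroid plexus list over the 19 arrays. The values were -0.38 with the astrocyte, -0.32 with the oligodendrocyte, 0.13 with the endothelial and -0.070 with the blood list. The part of these cell types in the ribosomal protein differences was not tested.

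Genes measured by several probes were mostly of one sign across them. Of the 47 genes with more than 1 probe, 44 had all probes on one side of 0 between vehicle and WT, 44 between UA and vehicle and 33 between UA and WT. Over all 149 probes of the 86 genes, 143 differences were above 0 between vehicle and WT, with a median of 0.22, and 29 probes were called higher and 0 lower when each probe was tested on its own. Probes of 1 gene read the same mRNA on the same arrays, so these counts add no independent evidence to those by gene. The share of calls over all probes was not counted, and neither slide nor brightness was in that fit.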

How the data were processed

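Per the file headers, spot intensity came from Agilent Feature Extraction 12.0.3.1 with a 2-colour protocol, in which the authors' processed green values are corrected for background and for dye within each array. The labels describe green (Cy3) cRNA only, and red values were not used. The deposited values are a score per spot, namely the log10 of processed green intensity, centred and scaled within its array, to within 0.005, with column medians from -0.28 to -0.17. Scale, centring and direction of these values are thus known, and they served as an alternative.

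From the scanner files, control spots (3671 of 62976) and non-uniform spots were left out, spots of a probe were averaged as log2, and the array's 75th percentile over 56605 probes was subtracted. Probes well above background on at least 6 arrays were kept (33454), and the probe of highest mean stood for a gene. Accessions were named through RefSeq genes of GRCm38.p6. The percentile ran from 450 to 1199 intensity units, and no green spot was saturated. The number of arrays limits the precision.

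Group means over all 19 arrays were fitted in R 4.3.3 with limma 3.58.1 (lmFit, eBayes; data.table, version 1.17.8), 2-sided, with Benjamini-Hochberg adjustment over 25603 genes, and the fit was tested on simulated data. Alternatives covered scaling, background correction, filters, probe choice, slide, sex, replicate number, brightness and single arrays. The columns for mean spot signal were not used here, so normexp (offset 50) ran on the median signal. The genes and lists were chosen with earlier results of these data known. Named genes were those past the threshold, the 3 highest and lowest where fewer than 6 passed, copies of ribosomal protein genes, the P-stalk, Rpsa, Rps6, genes with a single array far from its group, and passing genes of each list. Other genes named (Rps2, Rps3, Rps16, Rpl5, Rpl9, Rpl11, Rpl13, Rpl26, Rpl29, Rpl32l, Fau, Rack1, Tpt1, Eef1a1 and Eef2) were chosen after their values were seen. Some genes are counted but not reported here by name.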

Additional observations from a re-analysis of the deposited data

Results flagged for a closer look

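For each named gene and group, and for the mean over the 86 genes, the array farthest from its group was compared with the spread of the rest. Genes named only after their values were seen, Rpl13 among them, were not compared in this way. Of 90 groups of values, 11 had an array beyond Dixon's 95% limit, where chance gives about 1 in 20 groups. APP/PS1 vehicle replicate 3 was the highest array of its group in 6 of them: Rplp1 at 7.52, Rps19bp1 at 2.92, Rpl7l1 at -0.52, Rpl22l1 at 6.33, Rpl36al at 5.12 and the mean over the 86 genes at 6.28. UA replicate 3 was the highest of its group for Rps12 (6.19) and Rps15a (5.43). WT replicate 1 was the highest for Rpsa (6.52), WT replicate 3 the lowest for Rpl36a (5.52) and vehicle replicate 5 the lowest for Rps27l (2.24). Without vehicle replicate 3, limma called Rplp1 at an adjusted p of 0.0363, and Rps27l was at 0.0530.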

How the results depend on the processing

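The direction of the ribosomal protein genes between APP/PS1 vehicle and WT held in all alternatives but one, while the count of calls did not. Against 10 genes called, limma called 18 with the percentile over probes detected on all arrays, 30 with quantile normalization, 23 with normexp, 20 with probes well above background on all arrays, 25 with slide as a random block, 22 with sex as a covariate, 19 with trend and robust settings and 32 with the share of probes above background as a covariate. It called 4 with the deposited value table, 4 with no filter, 6 with green signal before dye normalization, 1 with slide as a fixed block, 3 in male arrays only, 0 within slide 1 and 0 with the log2 75th percentile as a covariate. Calls over all genes moved as well, from 687 higher and 609 lower in the main fit to 1170 and 1081 with slide as a random block. They were 65 and 11 with slide as a fixed block. The random block had a fitted correlation within slides of -0.045, so its larger count does not show that slide was accounted for. Leaving out each array in turn gave 4 to 23 calls, with 4 without WT replicate 6, 5 without WT replicate 2, 6 without WT replicate 4, 5 without vehicle replicate 1 and 23 without vehicle replicate 5. The median difference then ran from 0.12 to 0.24. The brightness covariate turned the median of vehicle minus WT to -0.0040 and that of UA minus WT to -0.071. The mean of all probes turned Rps27a to -0.077 (adjusted p = 0.833), through its second probe. In all other cases the cause was not tested. In UA against vehicle and against WT, 0 of the 86 genes were called in any alternative run, and the median of UA minus vehicle ran from -0.16 to -0.056 when single arrays were left out. Over all 25603 genes the absence of calls between UA and vehicle depended on the processing. With normexp 155 genes were called higher and 1467 lower, and without vehicle replicate 4 10 were called lower.

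With replicate number as a block 4 genes were called. The numbers did not pair the arrays: over 18 pairs of same-numbered arrays the correlation of deviations ran from -0.55 to 0.39, with 8 pairs over 0.1. Of 41 alternatives, Rps12 was called in 39, Rpl22 and Rps27 in 38, Rpl34 in 37, Larp1 in 36, Rps9 in 33, Rpl37a in 30, Rps27a in 27, Eif4h and Castor2 in 25, Rplp1 in 22, Serbp1 in 19, Rps27l in 18, Wdr3 in 16 and Ncl in 15. These alternatives are not independent, and 19 of them only leave out a single array. The runs without saturated probes and without Rps19bp1 repeat the main fit for these genes, so the counts do not measure stability evenly. Over all genes, 53% of calls between vehicle and WT were higher. That share ran from 35.5% with scaling to the array mean to 100% within slide 1 (22 calls). It was 40.2% with the deposited table, 64.4% with the percentile over detected probes, 69.6% with green signal before dye normalization, 79.0% with the replicate block, 81.9% with the brightness covariate, 82.2% with no filter and 85.5% with slide as a fixed block. The median of UA minus WT was 0.12 with quantile normalization, and 0.17 both with normexp and with green signal before dye normalization. That of vehicle minus WT was 0.28 with normexp and 0.33 with green signal before dye normalization. The median of UA minus vehicle was -0.052 with slide as a fixed block, -0.20 in male arrays only and -0.062 with the brightness covariate.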
